A study of Mus musculus with 20 samples.

Results

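The comparison described here is that of mouse cortical neurons with and without the circular RNA ciRS-7 (listed as Cdr1as), kept in normal oxygen and glucose. It uses the 5 libraries of the knockout group N_KO and the 5 of the wild-type group N_WT, 10 of the 20 libraries of the study, and all 14152 genes of the table that sets these groups against each other. The neurons were primary cultures from embryonic day 15 cortex, grown for 7 days and then kept for 12 h in fresh medium with 25 mM glucose and 0.2 mM pyruvate in the normal incubator. The other 10 libraries (OGD_KO and OGD_WT, 5 each) came from cultures deprived of oxygen (1%) and glucose for the same time, and they enter only where the genes of interest are followed into that condition. The strain label is C57BL/6N-Cdr1asem1Nikr for every library, wild type included, so the genotype comes from the genotype label alone. The labels do not say how many embryos a culture pooled, of which sex, or whether the 5 libraries of a group came from separate litters, so p-values measure the spread between these libraries. The labels also give each culture a batch: batches 1, 3.1 and 3.3 hold both genotypes, batch 2 only knockout and batch 3.2 only wild type.

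ciRS-7 is a circle made by back-splicing of a single exon, and it is abundant in neurons of the mammalian brain. It carries many short stretches that pair with the seed (bases 2 to 8) of the microRNA miR-7, and a single, nearly complete site for miR-671, which guides its cleavage. Cyrano (Oip5os1), a long noncoding RNA, directs the decay of miR-7 and belongs to the same network. The sequences below show these features of the RNA that the knockout targets. The mature microRNAs, from RefSeq, have the seed in capitals, and miR-7a-5p and miR-7b-5p share it:
mmu-miR-7a-5p: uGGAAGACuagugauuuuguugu
mmu-miR-7b-5p: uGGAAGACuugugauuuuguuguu
mmu-miR-671-5p: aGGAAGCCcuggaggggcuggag

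The exon that gives rise to the circle lies at X:61183248-61186174 on the plus strand (GRCm38, which is mm10) and is exon 6 of a transcript of the lincRNA gene that GENCODE lists as C230004F18Rik and the table as Cdr1os. In its 2927 bases the letters GTCTTCC, the match to the miR-7 seed, occur 123 times on the plus strand, 34 times followed by A, with a median distance of 18 bases between neighbouring matches. Of these, 3 are shown with the seed match in capitals, and all 3 are followed by A. The miR-671 site comes last, where the capitals mark the 19 of 23 bases that pair. A match is a description of letters and does not show that a microRNA binds there.
first match, X:61183258-61183282: ggtgccagtaccaagGTCTTCCaac
a match followed by A, X:61183665-61183690: ttccacaaaattcagGTCTTCCagaa
last match, X:61186083-61186107: ttccagcatctttatGTCTTCCaac
miR-671 site, X:61186029-61186051: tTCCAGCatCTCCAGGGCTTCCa

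The values are log2 CPM (counts scaled to library size, on a log2 scale) with a clipping of the extreme library of each gene and group undone, which returned whole counts of 7071506 to 14762866 per library. Counts below are these whole numbers. Neuron markers were present at a list mean of 7.57 to 7.78 log2 CPM in all 10 libraries. By contrast, 15 of 16 microglia markers and 10 of 13 endothelial and mural markers were not in the table. Of 11 meningeal markers, 9 were not in the table and Dcn was. The remaining marker, Igf2, was matched to M6pr, the symbol of another gene. The libraries of batches 1, 2 and 3.2 lay in the middle of their groups, being the highest or lowest of 5 for 7.82% to 20.4% of genes, against 52.3% to 59.7% for those of batches 3.1 and 3.3. Over the libraries of a batch in all 4 groups, the deviations from the group means cancelled: the SD of the batch mean over genes was 0.0318 to 0.0631, under the 0.0873 to 0.144 that independent libraries with the same single-library SD (0.123 to 0.354) would give. Whether the counts had been adjusted for batch before they were deposited is not given in the sources used here, and p-values take the libraries as independent. In N_KO replicate 2 the Y-linked genes Ddx3y, Eif2s3y, Kdm5d and Uty summed to 5.46 CPM, against 52.5 to 133 CPM in the other 9 libraries, and all 10 held Xist.

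Few genes were called between knockout and wild type in normoxia. Of the 14152 genes, 5 passed the test (0.0353%): Cdr1as and Gm2004 fell, and Cdr1os, Gm14419 and Cdhr1 rose. The test was limma with an intensity trend, and a call means a p below 0.05 after Benjamini-Hochberg adjustment over the whole table. An unadjusted p under 0.05 was reached by 256 genes (1.81%), 133 higher and 123 lower. With no gene changed and exact p-values, this share would be near 0.05, so the p-values may be too high here. A small number of calls then does not show that few genes changed. The log2 fold change of 98.7% of genes was within 0.5 of 0, and the median over all genes was -0.00395. In 25 genes (0.177%) all 5 N_KO libraries lay above all 5 N_WT libraries, and in 21 (0.148%) they lay below. With library weights, limma called 926 genes, so the count depends on the weight given to the libraries in the middle. The weights ranged from 0.346 to 14.96, highest for N_WT replicate 3, then 4.89 for N_KO replicate 3 and at most 1.77 for the others. Among these 10 libraries, N_WT replicate 3 is the only one of batch 3.2 and N_KO replicate 3 the only one of batch 2. Between them genotype and batch cannot be told apart.

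**Figure D1:**
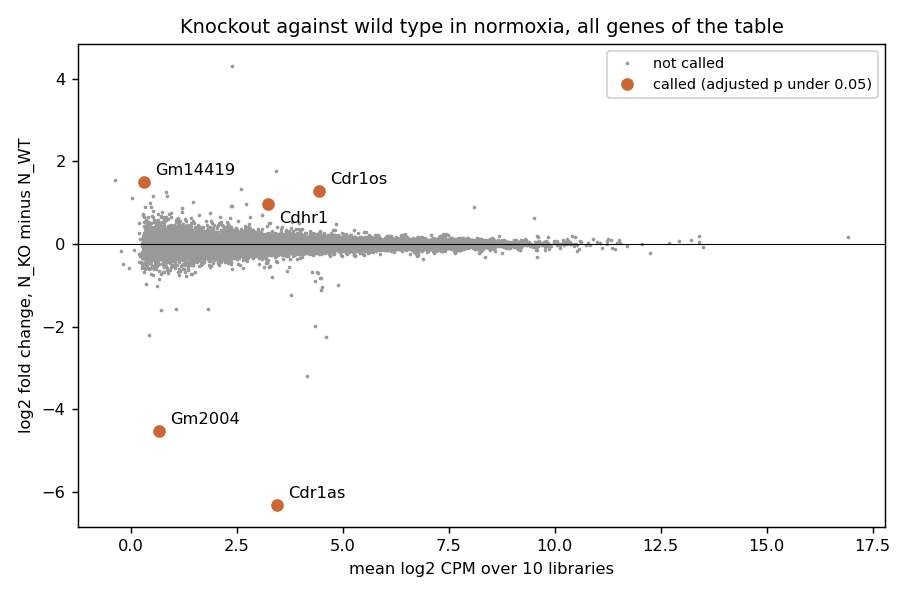
Log2 fold change (N_KO minus N_WT, vertical axis) against mean log2 CPM over the 10 libraries (horizontal axis) for every gene of the table, with the 5 called genes in orange. Cdr1as at -6.32 lies far below the other genes, and the plotted value of Gm2004, which has 0 counts in N_KO, is set by the prior count and is no bound, while Cdr1os, Gm14419 and Cdhr1 lie above 0.

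Cdr1as, the target of the knockout, had 1365, 1160, 870, 1064 and 700 counts in N_WT replicates 1 to 5 and 11, 6, 5, 13 and 16 in N_KO replicates 1 to 5. Every knockout library was far below every wild-type library, as labelled. Summed over the groups this is 99.4 CPM against 0.932 CPM, so 0.938% of the wild-type level remained. The mean was 6.63 ± 0.13 log2 CPM in N_WT and 0.31 ± 0.48 in N_KO (SD, n = 5). The fitted log2 fold change was -6.32 (SE 0.19, limma adjusted p 5.81e-14), and a two-sided exact permutation test gave 0.00794, the lowest p possible with these group sizes. A gene table does not tell circular from linear transcripts, and Cdr1, the gene on the opposite strand of the exon, was not in this table.

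Cdr1os, the long noncoding RNA whose transcript carries the ciRS-7 exon, moved the other way. It had 158, 142, 132, 167 and 108 counts in N_WT and 313, 313, 279, 296 and 689 in N_KO. The lowest knockout value, 4.59 log2 CPM in replicate 2, was above the highest wild-type value, 4.12 in replicate 4. The log2 fold change was 1.28 (SE 0.18, 95% interval 0.91 to 1.65, limma adjusted p 0.00339), which is 2.43-fold. Within batches 1, 3.1 and 3.3 the knockout was higher by 1.30, 0.87 and 1.79. With the 7 libraries of batches 3.1, 3.2 and 3.3 alone the value was 1.24 and the limma adjusted p 0.146. Only 0.278% of its 50-base words occur in another gene of the annotation, but how the deposited counts divided reads between Cdr1os and Cdr1as is not given in the sources used here, and its part in the rise was not tested.

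None of the 20 nearest genes of the table on chromosome X (10 before and 10 after the exon) was called. Their log2 fold changes ran from -0.08 (Htatsf1) to 0.44 (Mcf2), and all 20 of their 95% intervals lay between -0.53 and 0.80. The nearest before was Sox3, a transcription factor of neural progenitors, at -0.07 (95% interval -0.53 to 0.40). The nearest after was Slitrk4, a synaptic adhesion protein, at -0.02 (-0.34 to 0.30). They lie 223 kb before and 3125 kb after the bounds of the RefSeq entry of Cdr1os, which are not those of the exon. Fmr1, which encodes an RNA-binding protein of the synapse, was at 0.02 (-0.29 to 0.34). Mcf2, a guanine nucleotide exchange factor, was the only 1 of the 20 with an unadjusted p under 0.05, which 1.81% of all genes had. It was also the only neighbour whose groups did not overlap in log2 CPM (0.177% of all genes were apart and higher in N_KO). The counts of its groups did overlap (11 to 24 counts in N_WT, 19 to 34 in N_KO).

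**Figure D2:**
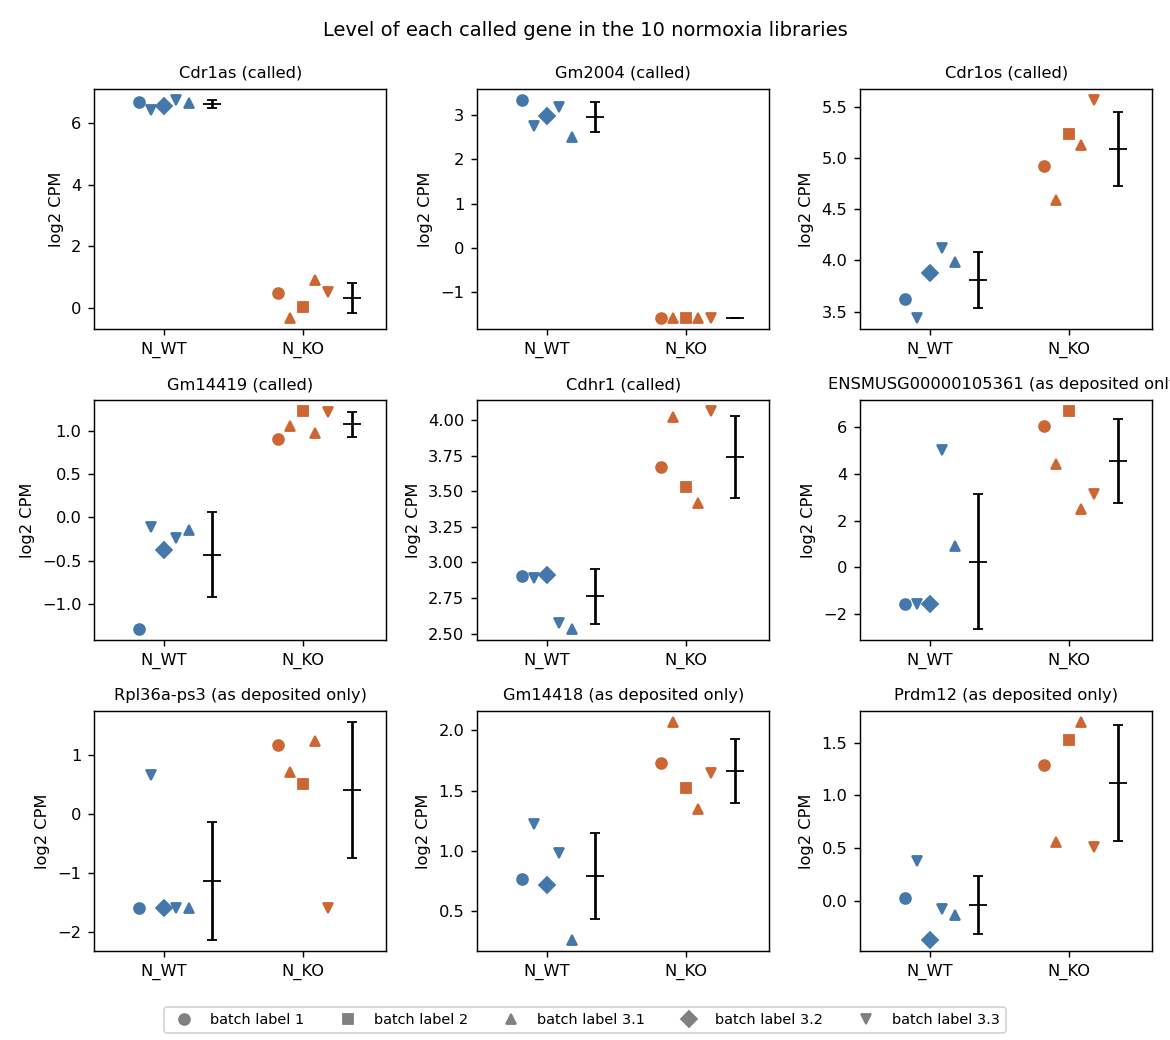
Log2 CPM (vertical axis) of the 5 called genes and of the 4 called only on the values as deposited, 1 point per library with the symbol giving the batch label, blue for N_WT and orange for N_KO, and the mean ± SD of each group in black. The groups of the 5 called genes do not overlap, and Gm2004 sits at the floor of the table, -1.59, in all 5 N_KO libraries.

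Gm2004 was the second gene to fall. It had 129, 87, 69, 85 and 37 counts in N_WT and 0 in each of the 5 N_KO libraries. Over the group the N_KO libraries hold 54716094 counts, so a floor of 3 counts over the group makes Gm2004 at least 143-fold lower than the 7.84 CPM of N_WT, counting error only. The limma adjusted p was 2.01e-11. GENCODE places this protein-coding gene at 2:176141591-176149825 on the minus strand, on another chromosome than the knockout. All of its 50-base words (100%) occur also in another gene, so no stretch of 50 bases is particular to it. What this does to its count was not tested. Gm2004 was not in the table that compares the genotypes under deprivation.

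Gm14419 is a protein-coding gene on the same chromosome, at 2:177000956-177012787 on the plus strand. It had 1, 8, 4, 5 and 4 counts in N_WT and 16, 23, 15, 14 and 29 in N_KO, so that every knockout library was above every wild-type library. Its log2 fold change was 1.51 (SE 0.23, limma adjusted p 0.0120), and 94.3% of its 50-base words occur in other genes. The call was lost without N_KO replicate 2 (limma adjusted p 0.0728), the library low in Y-linked counts, and without N_KO replicate 4 (0.0551). It was also lost with a prior count of 0.5 (limma adjusted p 0.102), with batches 3.1, 3.2 and 3.3 only (0.182) and with batches 1, 2 and 3.2 only (0.373, an alternative chosen after seeing the data). The value of this low gene depended on the prior count, at 1.35 with a prior count of 5 and 2.11 with 0.5.

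Both genes lie in a stretch of chromosome 2 that runs from Gm14399 to Gm14326 (2:175129493-177957297) and holds 30 genes of the table. Several are named as zinc finger genes (Zfp965, Zfp966, Zfp968, Zfp970, Zfp973), and the stretch was chosen after their values were seen. Of these 30 genes of the 14152 in the table, 8 had an unadjusted p under 0.05, against 1.81% of all genes. Of the 14 genes called in normoxia by at least 1 of the fits described here (clipping undone, as deposited, or with the batch label as a covariate), 5 lie in the stretch: Gm2004, Gm14419, Gm14418, Gm14440 and Gm14416. They did not move together, since Gm2004 fell and the fitted values of the other 4 were above 0. The 25 other genes of the stretch ran from -1.58 to 0.62 with a median of -0.15. Zfp965 was at -0.60 in normoxia, not called, and was called higher under deprivation, where its log2 fold change was 2.86 (limma adjusted p 0.0179). The copies of this stretch share sequence, and what sharing does to their counts was not tested.

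Cdhr1 encodes a cadherin known from photoreceptors and from the projection neurons of the olfactory bulb, and is a protein-coding gene at 14:37077857-37098347 on the minus strand. It had 94, 96, 66, 55 and 38 counts in N_WT and 129, 210, 84, 89 and 240 in N_KO. The groups did not overlap on the log2 CPM scale, where N_WT lay between 2.53 and 2.91 and N_KO between 3.42 and 4.07. The log2 fold change was 0.98 (SE 0.16, 95% interval 0.65 to 1.31, limma adjusted p 0.0193), or 1.97-fold, and none of its 50-base words occurs in another gene. Within batches 1, 3.1 and 3.3 the difference was 0.77, 1.19 and 1.33. The call was lost when N_KO replicate 1, 2 or 5 or N_WT replicate 4 or 5 was left out (limma adjusted p 0.0529 to 0.105), while the value stayed between 0.90 and 1.00. It was also lost with batches 3.1, 3.2 and 3.3 only (1.11, limma adjusted p 0.182) and with batches 1, 2 and 3.2 only (0.69, limma adjusted p 0.253).

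Cdhr1 was the only called gene among 6 markers of olfactory bulb projection neurons in the table. Eomes, a T-box factor of these neurons and of cortical intermediate progenitors, was at 0.33 (95% interval 0.05 to 0.61, unadjusted limma p 0.0252) and was not called. Reln, Tbr1, Slc17a7 and Doc2g were at 0.05, -0.01, -0.03 and 0.12, and Tbx21, Lhx5 and Barhl2 were not in the table. The mean of the list was 4.55 to 4.69 log2 CPM in N_WT and 4.75 to 5.08 in N_KO, with Cdhr1 itself among the 6. These groups did not overlap, but the mean without the called gene was not computed. The list mean therefore adds no support beyond the call of Cdhr1.

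The values as deposited, with the clipping left in, gave 9 calls (0.0636%): the same 5 and 4 more. The additional genes were Prdm12, a transcription factor of nociceptors, at 1.16, Gm14418 at 0.85, the pseudogene Rpl36a-ps3 at 1.89, and ENSMUSG00000105361 at 4.64. With the clipping undone their limma adjusted p was 0.426 to 0.9999. ENSMUSG00000105361, a lincRNA at 17:39847113-39848035 all of whose 50-base words occur elsewhere, had 0, 0, 0, 310 and 11 counts in N_WT and 679, 274, 767, 45 and 124 in N_KO, so the groups overlapped. Rpl36a-ps3 was at 0 counts in N_WT replicates 1, 3, 4 and 5 and in N_KO replicate 5. Prdm12 had 4 to 13 counts in N_WT and 15 to 25 in N_KO, and its groups did not overlap.

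With the batch label as a covariate, 11 genes were called (0.0777%), all of the 5 named first among them. Cdr1os was at 1.32 in that fit, Gm14419 at 1.52 and Cdhr1 at 1.13. The further 6 were ENSMUSG00000105361 (3.51), Gm6741 (2.23), Gm14440 (2.16), Gm14416 (1.61), Rpl23a-ps3 (-1.98) and Fam205a2 (-2.57). At least 88.3% of the 50-base words of each of these 6 occur in another gene. Their groups overlapped, and each had libraries at 0 counts: Gm14440 had 0 in N_WT replicate 1 and 41 to 295 in the other 9 libraries, and Fam205a2 had 0 in N_KO replicates 1, 3 and 5.

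Beyond the calls, genes of at least 1 log2 CPM whose groups did not overlap on the log2 CPM scale are given as values only. There were 16 such genes higher and 11 lower in N_KO, and the 10 with the smallest p in each direction were named. Among the higher genes, Cfap46, a protein of the ciliary axoneme, had 12 to 23 counts in N_WT and 21 to 49 in N_KO (log2 fold change 0.78). Ndst4, which sulfates heparan sulfate chains, had 57 to 98 counts against 84 to 147 (0.51). Adra1a, the alpha-1A adrenergic receptor, was at 0.51, Myo18b, an unconventional myosin, at 0.60, Mcf2 at 0.44, and Kcnn1, a calcium-activated potassium channel, at 0.38. The remaining 4 were Gm28320 (0.76), Gm28043 (0.53), Gm11839 (0.62) and Nutf2-ps1 (0.32), of which the last 3 share at least 71.3% of their 50-base words with another gene.

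Among the lower genes, Depdc1b, a gene expressed in dividing cells, had 15 to 39 counts in N_WT and 10 to 30 in N_KO (log2 fold change -0.64). Tst, the mitochondrial thiosulfate sulfurtransferase, was at -0.58, Ldhd, the D-lactate dehydrogenase, at -0.50, and Aprt, the adenine salvage enzyme, at -0.27. Dnajc19, a co-chaperone of mitochondrial protein import, was at -0.24 and Mettl2, a tRNA methyltransferase, at -0.30. The small nuclear RNA gene Gm25099 was at -0.67, A830073O21Rik at -0.53, F830112A20Rik at -0.34 and Zfp992 at -0.24. Unadjusted limma p-values of these 20 ran from 0.000354 to 0.0873, and none was called.

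The genes that make and use microRNAs had log2 fold changes close to 0. Of 25 genes of circular RNA and microRNA handling in the table, 1 was called higher and 1 lower, Cdr1os and Cdr1as. The other 23 ran from -0.10 (Dgcr8) to 0.13 (Qk), and the median over the 25 was -0.00135 beside -0.00395 over all genes. Cyrano (Oip5os1) was at 9.03 ± 0.18 log2 CPM in N_WT and 9.03 ± 0.20 in N_KO (SD, n = 5), a difference of 0.00 with a 95% interval of -0.28 to 0.29. Zswim8, the adaptor of the ligase that degrades Argonaute bound to microRNA decay targets, was at 0.05 (-0.18 to 0.29). Ago1, Ago2, Ago3 and Ago4, the Argonautes, were between -0.07 and 0.06, with 95% intervals between -0.35 and 0.36. Dicer1 and Drosha, the processing nucleases, were both at -0.00 (Dicer1 -0.35 to 0.34, Drosha -0.28 to 0.28). Qk, which promotes back-splicing, was at 0.13 (-0.26 to 0.52), and Adar and Adarb1, the RNA editing enzymes, at 0.00 and -0.07. MicroRNAs themselves are not in the table.

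None of the 29 reported targets of miR-7 in the table was called or reached an unadjusted p under 0.05 (1.81% of all genes did). Their median was 0.01, 17 were above 0 and 12 below, and the values ran from -0.16 (Nr4a3) to 0.27 (Fos). Egfr, Irs2 and Pak1, of growth factor and actin signalling, were at 0.11, 0.12 and 0.10, and Cplx1, which clamps vesicle fusion, at -0.16 (95% interval -0.44 to 0.13). All 29 intervals lay within 1 log2 unit of 0, and 25 within 0.5. In the fit with the batch label as a covariate the median was -0.03 and 11 of 29 were above 0.

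Immediate early genes, switched on by neuronal activity, were called in no case. Of 32 in the table, 22 were above 0, with a median of 0.08. Egr1, Egr2 and Egr3, zinc finger factors of this group, were the only members with an unadjusted limma p under 0.05, at 0.49 (p 0.0225), 0.62 (p 0.00962) and 0.55 (p 0.0420), beside 1.81% among all genes. When the batch label was a covariate, Egr1 was at 0.29, Egr2 at 0.49 and Egr3 at 0.46, and under deprivation they were at 0.09, 0.20 and 0.03. Fos was at 0.27 (95% interval -0.22 to 0.75), and Arc, which acts at synapses, at 0.40 (-0.02 to 0.82). The mean of the list was 3.75 to 4.15 log2 CPM in N_WT and 3.75 to 4.17 in N_KO, so the groups overlapped. Within batches 1, 3.1 and 3.3 the mean differed by -0.05, 0.24 and -0.02.

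Genes of the synapse showed little difference. None of 34 genes of presynaptic release was called or had an unadjusted p under 0.05, and 33 of 34 intervals lay within 0.5 of 0. Their values ran from -0.16 (Cplx1) to 0.13 (Snap25, a SNARE of vesicle fusion), with a median of 0.02. The 29 postsynaptic scaffold and adhesion genes had a median of 0.02, none with an unadjusted p under 0.05, and 28 intervals within 0.5. Among 28 glutamate receptor and transporter genes, Slc17a6, the vesicular glutamate transporter VGLUT2, was the only one with an unadjusted limma p under 0.05, at 0.33 (95% interval 0.02 to 0.64), and Gria2, an AMPA receptor subunit, was at 0.20 (-0.41 to 0.81). Of 18 GABA receptor and synthesis genes, 12 were above 0 with a median of 0.05 (17 and 0.12 with the batch label as a covariate), and Gad2, which makes GABA, was at 0.21 (-0.11 to 0.52).

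**Figure D3:**
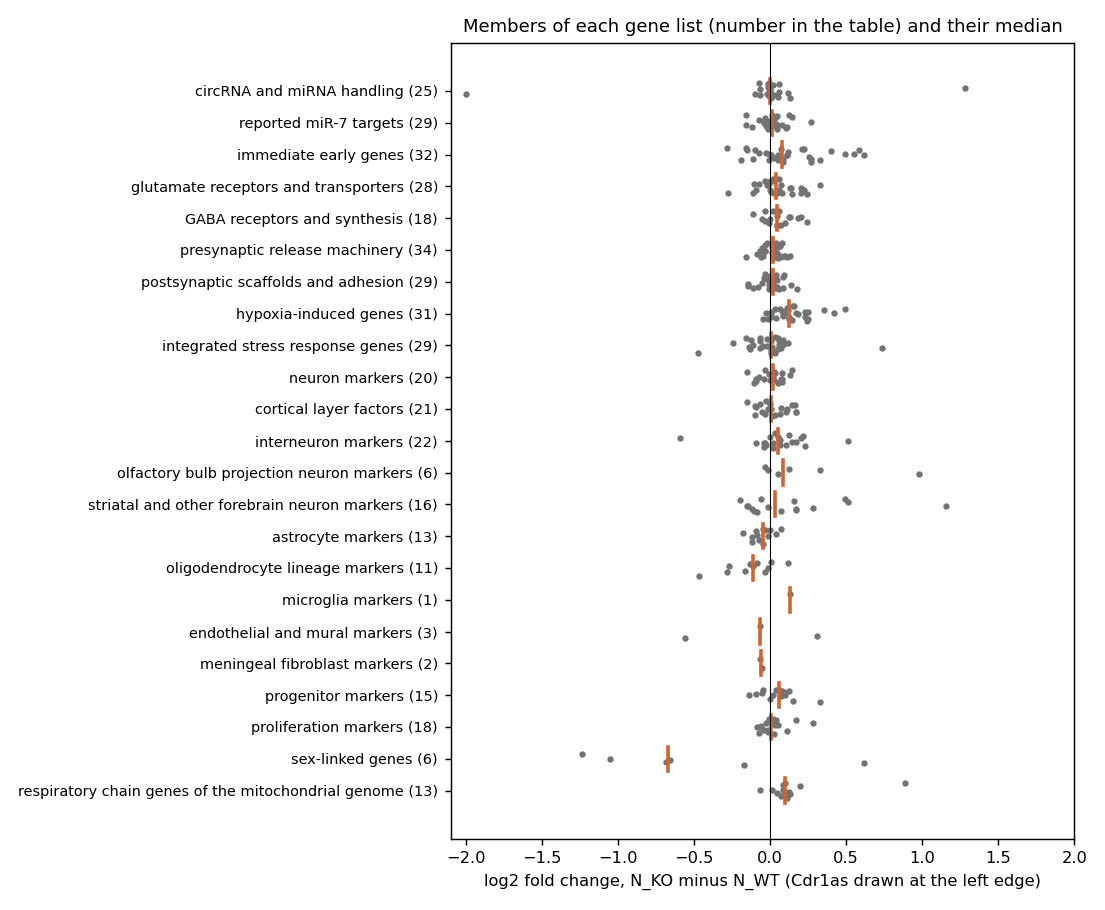
Log2 fold change (N_KO minus N_WT, horizontal axis) of every member of the gene lists in the table, 1 grey point per gene with the median of each list as an orange bar and the number of members in brackets. Medians lie within 0.13 of 0 except for the sex-linked genes, at -0.67, and Cdr1as (-6.32) is drawn at the left edge. The meningeal fibroblast list holds Dcn and M6pr, the latter in place of Igf2.

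The difference in hypoxia-induced genes had one sign over all libraries and the opposite sign within batches 3.1 and 3.3. Of 31 in the table none was called, 28 were above 0 and the median was 0.12. The largest values were those of Egln3, a prolyl hydroxylase that senses oxygen, at 0.49 (95% interval -0.10 to 1.09), and Slc2a1, the glucose transporter GLUT1, at 0.42 (-0.08 to 0.91). Their mean level followed the batch label. In batch 3.1 it was 5.83 and 5.75 log2 CPM in N_KO replicates 2 and 4 and 5.96 in N_WT replicate 5. In batch 3.3 it was 4.75 in N_KO replicate 5 and 4.89 and 4.88 in N_WT replicates 2 and 4. The 4 libraries of the other batches were between 5.22 and 5.35. The knockout group has 2 libraries in batch 3.1 and 1 in batch 3.3, the wild-type group the reverse.

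Within batch 3.1 the knockout mean of the hypoxia list minus the wild-type mean was -0.17, within batch 3.3 it was -0.13, and within batch 1 it was 0.07. With the batch label as a covariate the median was -0.11, and 7 of 31 genes were above 0. In all 3 libraries of batch 3.1, 27 of the 31 genes were above all 3 libraries of batch 3.3, as were 3.87% of all genes. Bnip3 and Vegfa, classical targets of the hypoxia-inducible factors, were at 0.25 and 0.12 over all libraries and at -0.17 and -0.26 with the covariate. Deviations from the group means cancelled within each batch over the 4 groups (SD of the batch mean over genes 0.0318 in batch 3.1, 0.0555 in batch 3.3). A batch high in normoxia is then low under deprivation in these counts, so the reversed order there is no separate observation. There batch 3.1 had the 3 lowest means (5.74 in OGD_WT, 6.26 and 6.54 in OGD_KO), batch 3.3 the 3 highest (6.79 in OGD_KO, 7.03 and 7.35 in OGD_WT), and the median knockout effect was -0.13. What the batch labels stand for is not given in the sources used here, and its part in these values was not tested.

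**Figure D4:**
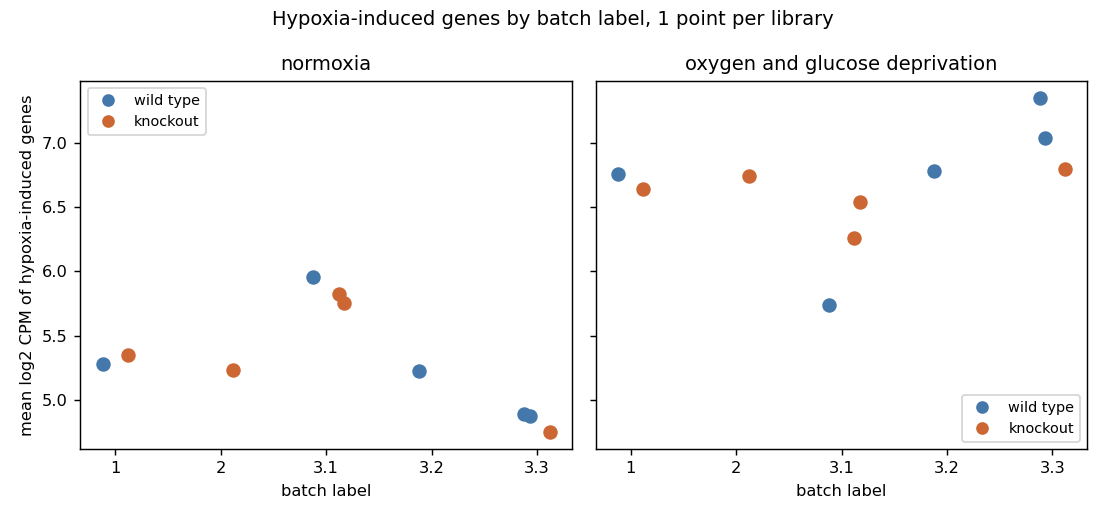
Mean log2 CPM of the 31 hypoxia-induced genes (vertical axis) by batch label (horizontal axis), 1 point per library, blue for wild type and orange for knockout, in normoxia (left) and under deprivation (right). In normoxia the libraries of batch 3.1 are highest and those of batch 3.3 lowest in both genotypes. Under deprivation this order is reversed, which the cancelling of deviations within each batch over the 4 groups entails.

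Genes of the integrated stress response, the programme that follows phosphorylation of eIF2alpha, had a median of 0.01 over 29 members, with none called. Trib3, a pseudokinase of this response, was at 0.73 (95% interval 0.19 to 1.28) and Ddit3, which encodes CHOP, at -0.47 (-0.88 to -0.07), in opposite directions. Asns, the asparagine synthetase, was at 0.01 (-0.28 to 0.30). Of 13 respiratory chain genes of the mitochondrial genome, 12 were above 0 with a median of 0.10. With the batch label as a covariate 5 were above 0 and the median was -0.02. mt-Co2 was the only one of them with an unadjusted limma p under 0.05, at 0.89 (p 0.00720), and was not called.

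The lists of neuronal markers had medians between 0.01 and 0.09, beside -0.00395 over all genes. Since these are bulk cultures, fewer cells of a type and less RNA per cell cannot be told apart. Neuron markers had a median of 0.02 over 20 genes, and all 20 intervals lay within 0.5 of 0. Map2, a microtubule protein of dendrites, was at 0.03 (95% interval -0.28 to 0.34). The 21 cortical layer factors had a median of 0.01 and none had an unadjusted p under 0.05. Of 22 interneuron markers, Npy, the neuropeptide, was at 0.51 (0.10 to 0.92) and was the only one with an unadjusted p under 0.05. Among 16 markers of striatal and other forebrain neurons, Prdm12 (1.16), Zic1 (0.51) and Ebf1 (0.49) had an unadjusted p under 0.05, against 1.81% of all genes, while 8 of the 16 were below 0 and the median was 0.03. Prdm12 is on that list but is best known from pain-sensing neurons.

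Glial and dividing cells were present in both groups. Of 13 astrocyte markers, 11 were below 0 with a median of -0.05 (with the batch label as a covariate, 7 were above 0 with a median of 0.02), and Gfap, the astrocyte intermediate filament, was at -0.18 (95% interval -0.55 to 0.19). Of 11 oligodendrocyte lineage markers, 9 were below 0 with a median of -0.12, but the median was -0.01 with the batch label as a covariate. Mbp, a myelin protein, was at -0.27 and did not have an unadjusted p under 0.05. Progenitor markers (15 genes) had a median of 0.06 and proliferation markers (18 genes) of 0.00, with none called. Mki67, a marker of cycling cells, was at -0.03 (-0.36 to 0.31).

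The called genes were then followed under deprivation, in cultures that carry the same replicate numbers, genotypes and batch labels. Of its 14185 genes, 4 (0.0282%) were called: Cdr1as, Cdr1os, Zfp965 and Sp5, the last a Wnt-induced transcription factor with a log2 fold change of 1.67. Cdr1as was at -6.26 (SE 0.30, limma adjusted p 1.03e-09) and Cdr1os at 1.14 (SE 0.18, limma adjusted p 0.0305). Cdr1os had 84 to 165 counts in OGD_WT and 104 to 421 in OGD_KO, groups that did not overlap on the log2 CPM scale. Cdhr1 had 54, 47, 46, 39 and 52 counts in OGD_WT and 105, 80, 101, 63 and 20 in OGD_KO. It was at 0.48 (SE 0.21) and was not called, with 1 OGD_KO library, replicate 5, at the lowest count of the 10.

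The difference between the knockout effects in the 2 conditions was tested as an interaction over 13688 genes. No gene was called by limma, and 100 had an unadjusted p under 0.05. That share is far below the 0.05 that exact p-values would give with no gene changed, so these p-values may be too high. The lack of calls then does not show that the knockout effects were alike in the 2 conditions. The interaction was 0.02 (SE 0.45) for Cdr1as, -0.13 (SE 0.29) for Cdr1os and -0.50 (SE 0.31) for Cdhr1. Of the 20 uncalled genes named above, 19 had the same sign in both conditions, Aprt being the other (-0.27 and 0.02). Over all 13720 genes in both tables the share was 54.1%. The 20 were chosen by their normoxia values, but the 13720 were not. Libraries of the same genotype and replicate number were taken as the same culture, so the deprivation libraries are no independent set of cultures. Cfap46 (0.78 and 0.71), Ndst4 (0.51 and 0.48), Kcnn1 (0.38 and 0.35) and Adra1a (0.51 and 0.43) were nearly as high under deprivation, while Gm28320 was not (0.76 and 0.14).

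**Figure D5:**
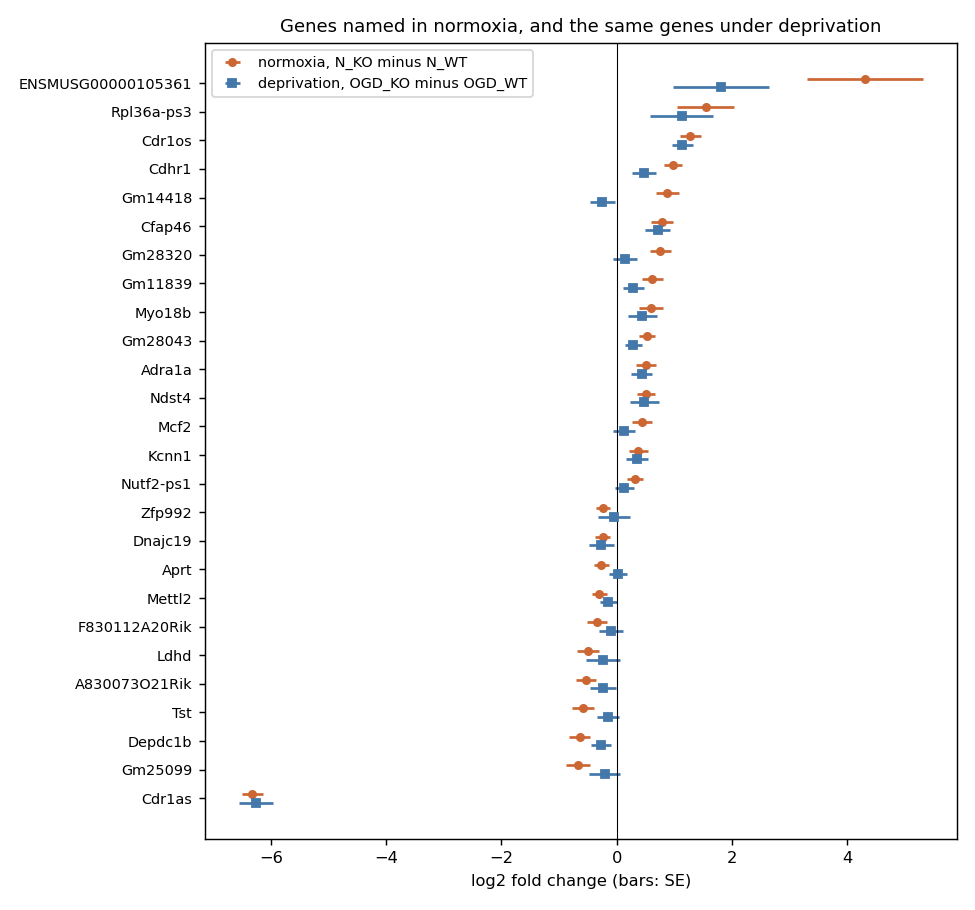
Log2 fold change with its SE (horizontal axis) in normoxia (orange) and under deprivation (blue) for the genes called in normoxia, with or without the clipping, and for the 20 uncalled genes with groups that did not overlap, where both tables hold the gene. Cdr1as (-6.32 and -6.26) and Cdr1os (1.28 and 1.14) lie at similar values in both conditions, and ENSMUSG00000105361 has the widest error bar.

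How large a change could have gone unseen follows from the intervals. The 95% interval of the log2 fold change lay within 1 unit of 0 for 13976 genes (98.8%) and within 0.5 for 10380 (73.3%), with a median half-width of 0.33. Precision depended on the level. For the 1069 genes under 1 log2 CPM the median half-width was 0.46 and 13.6% of intervals lay within 0.5, and for the 4764 genes between 5 and 8 log2 CPM these values were 0.30 and 94.0%. With the batch label as a covariate only 3431 intervals lay within 0.5, so changes of up to that size were bounded less closely in that fit.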

How the data were processed

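Total RNA was made into stranded libraries, per the labels' protocols. The authors deposited log2 CPM values, per the names of the tables, and genome build mm10 is named in the submitters' processing notes. The aligner, the counting and the annotation are not given in the sources used here. In each gene and group the deposited log2 values had their extremes drawn to the 10th and 90th percentile (weights 0.6 and 0.4), as inferred from the values. Inverting this gave whole counts within 0.05 for at least 99.9% of values up to 500 counts, against 48.0% to 91.1% as deposited.

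The log2 CPM with clipping undone were fitted with limma 3.58.1 in R 4.3.3 (lmFit, eBayes with trend) over the 10 libraries, without covariates, on 14152 genes. The interaction used log2 CPM from the whole counts (prior count 2, culture as block, consensus correlation -0.17). The code was tested on simulated data. Of the genes, 14040 matched GENCODE M21 (13750 by symbol, 216 by older symbol, 74 by ID). Named were genes called (clipping undone or as deposited), the 10 uncalled genes of smallest p per direction with a mean of at least 1 and groups apart, genes of the circular RNA list, the locus neighbours, and of each other list the 2 of smallest p and the most abundant. Other genes named were chosen after their values were seen. The members and the 23 lists were chosen with earlier results of these data known. A few genes that the rule or the lists include are not reported here.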

Additional observations from a re-analysis of the deposited data

Results flagged for a closer look

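A library stood well away from its 4 group mates in 30 of 310 groups of values (the named genes and list means in N_WT and N_KO), where chance gives about 1 in 20, or 15.5. The most, 7, were in N_KO replicate 4, and none was in N_WT replicate 3. All values are log2 CPM, with the range of the other 4 libraries beside the larger gaps.

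In N_KO replicate 2 the Y-linked gene Kdm5d stood at 0.70 against 4.12 to 5.30, and the mean of the sex-linked genes at 2.25 against 4.52 to 5.02. That library also stood apart in Cplx1 (7.70) and Lrrtm4 (4.99). Without it 3 genes were called, Cdr1as, Gm2004 and Cdr1os.

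Genes at 0 counts in 1 library, or in all but 1, made up a second set. The level of Gm14440 in N_WT replicate 1 was -1.59 (others 2.63 to 4.11), and that of Gm14416 in N_KO replicate 3 was -1.59 (others 1.17 to 1.85). For Rpl36a-ps3 N_WT replicate 2 had 0.66, the other 4 being at the floor, and N_KO replicate 5 had -1.59. The called gene Gm14419 had a single count, or -1.29, in N_WT replicate 1 (others -0.38 to -0.11).

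In N_KO replicate 4, interneuron markers had a mean of 5.31 against 4.81 to 4.95. The meningeal fibroblast list, there only Dcn and M6pr (matched in place of Igf2), had 2.64 against 3.10 to 3.24. N_KO replicate 4 was also apart for Gabrg3 (5.17), Ndst4 (3.99), Nutf2-ps1 (4.45), Dgcr8 (5.26) and Dis3l2 (4.84). In N_WT replicate 4, immediate early genes had a mean of 4.15 against 3.75 to 3.82, and Xpo5 (5.34), Tnrc6b (8.31), Cplx1 (7.82) and Neurod6 (7.47) stood apart.

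The other values were Tarbp2 (2.88), Pdgfra (7.70), Myl9 (-0.14) and Eola1 (2.30) in N_WT replicate 5, Zswim8 (6.65) and Gfap (3.23) in N_WT replicate 2, Nr4a3 (7.16) in N_WT replicate 1, Elavl4 (7.55) in N_KO replicate 5 and Eomes (3.52) in N_KO replicate 1.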

How the results depend on the processing

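Against 5 genes called, the count was 9 on the values as deposited, 11 with the batch label as a covariate, 2 with batches 3.1, 3.2 and 3.3 only, 3 among genes averaging 1 log2 CPM or more, 926 with library weights, and 3 to 5 when 1 library was left out. Batches 1, 2 and 3.2 only, chosen after seeing the data, gave 8. With the replicate number as a block the count was 3, Cdhr1 and Gm14419 being lost (limma adjusted p 0.164 and 0.0878). Deviations of same-numbered libraries correlated at -0.07 to 0.24 (5 pairs), so the numbers were not taken as pairs. Median-of-ratios scaling, a prior count of 5, voom and robust eBayes gave 5, and a prior count of 0.5 gave 4. Cdr1as was called in every fit. Cdr1os was called in all but batches 3.1, 3.2 and 3.3 only (1.24, limma adjusted p 0.146). The intervals within 0.5 numbered 3431 with the batch covariate, chosen after seeing the data. No called gene changed sign. Library weights, highest for N_WT replicate 3 and N_KO replicate 3, gave 419 higher and 507 lower.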
